A study of Vitis vinifera and Vitis riparia and Vitis amurensis with 189 samples.

Results

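A group of 45 grapevine genes, of 42394 in the count tables, was abundant in dormant buds, kept its level through the first day of warmth and was lost by the end of the series in all 4 genotypes studied. They are called the late-lost genes here. They were chosen on log2(CPM+1), where CPM is a gene's count scaled to a common total of gene counts per library, averaged over the libraries of a genotype and day. A gene was a member if its day 0 value was at least 4, its change on day 1 was smaller than 0.5 in size and its last-day value was 2 or more below day 0, each in all 4 genotypes. The day 0 level was met by 7247 genes, of which 2162 were also stable on day 1, and 462 met the day 0 level and the last-day loss. The values of day 0, day 1 and the last day therefore chose the members, and they are given as description with no test. The day 1 condition depends on how the libraries are scaled, as described with the levels.

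Dormant grapevine buds survive winter frost through cold acclimation, and a period of chilling lets them leave dormancy. Warmth then brings deacclimation, in which freezing tolerance is lost, followed by swelling of the bud and budbreak. Wild Vitis amurensis and Vitis riparia come from cold regions and are known for fast deacclimation and early budbreak compared with cultivars of Vitis vinifera. In woody plants, transcripts that accumulate in dormant or cold-hardy buds include those for protective proteins such as dehydrins and for regulators of dormancy.

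The series measured RNA in buds of 2 wild and 2 cultivated genotypes as dormant canes were moved to room temperature. The wild genotypes were V. amurensis PI588635 on days 0 to 10, without day 6, and V. riparia PI588275 on days 0 to 12, both from clonal vines kept in a USDA collection of cold-hardy grapevines. The cultivars were Cabernet Sauvignon on days 0 to 17 and Riesling on days 0 to 15, both V. vinifera from a commercial vineyard. Buds stood on cuttings with 1 node in cups of water and were frozen daily until budburst was seen. Day 0 buds were the only ones taken straight from the cane without warmth. Wild and cultivated also differ in species, growing site and the annotation's distance from each species, which cannot be told apart. The gene identifiers were not paired with names, so neither the roles of the members nor the bud tissue could be checked against known marker genes.

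The 189 libraries held 168521 to 21262793 gene counts, with a median of 5021123. In 12 pairs of libraries that share genotype and day, the counts differed far less than between other replicates, with a biological coefficient of variation of at most 0.0629 within the pair, against at least 0.0968 in the other pairs. Such near copies were counted as 1 sample, which left 177 samples in groups of 2 to 5. Over 15 genes seen in Cabernet Sauvignon and 11 seen in Riesling, each nearly absent from the other cultivar, all 21 cultivar libraries of days 5, 8 and 11 had under 10% of their marker counts from the cultivar they are labelled with. Of the 71 cultivar libraries scored on other days, 68 had over 90% and 3 lay between. The tests below use days 2, 7, 9 and 14, which hold neither near copies nor such libraries. The libraries labelled with a cultivar on days 5, 8 and 11 enter those tests only through the shared estimate of spread.

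The late-lost genes spanned a wide range of levels at day 0. Their median day 0 level was 121 CPM in V. amurensis and 154 CPM in V. riparia, and 115 CPM in Cabernet Sauvignon and 111 CPM in Riesling. In each genotype 4 members reached 1000 CPM or more, and Vitvi06g01696, with the highest CPM, averaged 7978 CPM in V. amurensis and 9351 CPM in V. riparia, against 10534 CPM in Cabernet Sauvignon and 8028 CPM in Riesling. CPM is not divided by gene length, so these levels do not rank the genes by transcript number. On the last day the medians were 12.4, 19.9, 15.9 and 13.7 CPM in the same order of genotypes. The ratio of the day 0 level to the last-day level had a median of 10.2 in V. amurensis and 7.09 in V. riparia, and of 12.1 in Cabernet Sauvignon and 13.7 in Riesling. In bulk buds, fewer cells of a type and less RNA per cell cannot be told apart.

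At the edge of the rule, the 3 members with the smallest loss had a last-day change, in the genotype where it was weakest, of -2.11, -2.10 and -2.07, and the 3 nearest genes outside had -1.995, -1.994 and -1.991. The largest day 1 change of a member was 0.4993 in size, and the nearest gene left out by this condition alone had 0.5207. By the same measure the strongest loss was -4.93, for Vitvi06g01696. With CPM rescaled by TMM, a normalization that sets the bulk of genes equal, 21 genes met the same rule, and 8 of them were among the 45. The difference lies on day 1. There the median change of the members with TMM moved to -0.47 in V. amurensis and -0.34 in V. riparia, and to -0.50 in Cabernet Sauvignon and -0.35 in Riesling, against -0.23, -0.07, -0.16 and -0.07 without TMM in the same order. The median over all genes at or above the day 0 level moved in the same way, to between -0.25 and -0.12 with TMM, against 0.09 to 0.13 without TMM. On both scales every one of the 45 genes was 2 or more lower on the last day in every genotype, and none was 1 or more lower on day 1.

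The 45 identifiers fall in 18 of the 20 number fields that Vitvi identifiers carry in these files, with at most 6 members in any field. There were 2 pairs of members with consecutive identifiers, and Vitvi06g01696 belongs to such a pair. Members of such pairs can be similar copies, among which the counting may have split or set aside reads, so their separate levels are uncertain.

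Between day 1 and the last day the members were lost along different courses in wild and cultivated buds. In V. amurensis the median change from day 0 over the 45 genes was -0.95 on day 2, -1.63 on day 4, -2.66 on day 7 and -3.30 on day 9. By day 2 already 22 of the 45 were 1 or more lower than at day 0, and by day 5 this held for 44. Of all genes at or above the day 0 level, 13.4% were 1 or more lower on day 2 and 22.1% on day 5. V. riparia followed more slowly, with medians of -0.46 on day 2, -1.31 on day 4, -1.15 on day 5, -1.40 on day 7, -2.20 on day 9 and -2.80 on day 10. By day 2 only 2 members were 1 or more lower, where 9.91% of all genes at or above the day 0 level were. On day 7, 33 members were, against 20.3% of those genes. On day 4 in V. riparia the median over all genes at or above the day 0 level was -0.47 as well, and 30.3% of them were 1 or more lower. There 2 of the 5 libraries had 68.4% and 69.0% of records outside annotated genes and 1 other held 168521 gene counts. The median change over the 45 genes was -1.89 and -2.18 in the former 2 and -1.15 in the shallow library. It was -0.995 and -0.655 in the remaining libraries, so the day 4 mean was pulled down by the former 2. Why these libraries were lower was not tested. The all-gene median was -0.51 on day 9 in V. amurensis and -0.01 in V. riparia.

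In the cultivars the decline was gradual up to day 9 and larger between days 9 and 14. In Cabernet Sauvignon the median change was -0.51 on day 2, -0.89 on day 4, -1.13 on day 7 and -1.46 on day 9. It was -2.62 on day 12, -2.36 on day 13, -3.42 on day 14, -2.44 on day 15 and -3.805 on day 16. There 28 members were 2 or more lower than at day 0 on day 15, against 45 on day 14. Of all genes at or above the day 0 level, 21.7% were 1 or more lower on day 15 and 29.0% on day 14. In Riesling the median change was -0.42 on day 2, -0.81 on day 4, -1.15 on day 7 and -1.57 on day 9. It was -1.89 on day 12, -2.12 on day 13 and -3.34 on day 14. On day 7, 26 members in Cabernet Sauvignon and 27 in Riesling were 1 or more lower than at day 0. Of all genes at or above the day 0 level, 20.4% and 17.1% were. On the same day 5 members in Cabernet Sauvignon and 4 in Riesling were above their day 0 mean. The median change over all genes at or above the day 0 level stayed between -0.14 and 0.11 in Cabernet Sauvignon and between -0.14 and 0.12 in Riesling on days 2 to 9.

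**Figure D1:**
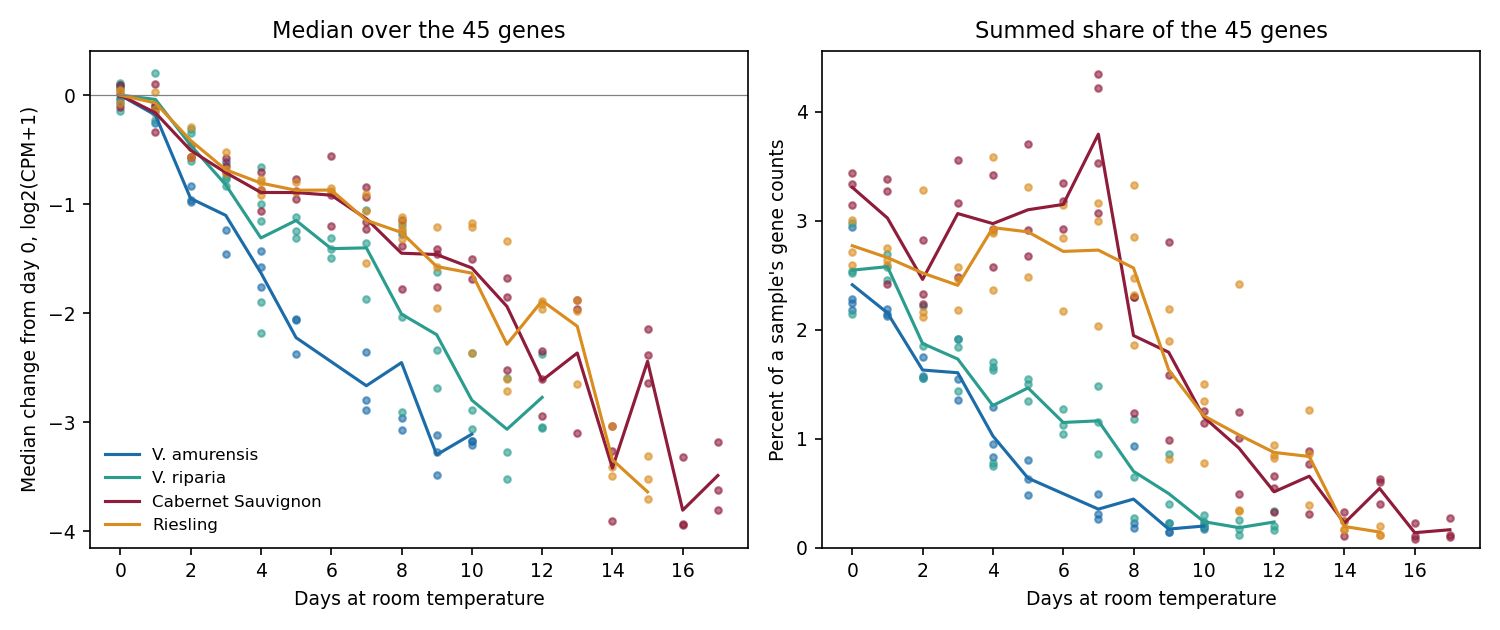
Left, the median change from day 0 over the 45 late-lost genes in log2(CPM+1) against days at room temperature; right, the percent of all gene counts that the 45 genes hold together. Points are samples and lines join day means of the 4 genotypes. V. amurensis is lowest on days 2 to 9 and the cultivars hold 1.63% to 1.79% of counts in these genes at day 9, against 2.77% to 3.31% at day 0.

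Taken as a share of all gene counts, the 45 genes behaved differently from their median. At day 0 they held 2.41% ± 0.357 of counts in V. amurensis (SD, n = 4) and 2.55% ± 0.343 in V. riparia (n = 4), and 3.31% ± 0.151 in Cabernet Sauvignon and 2.77% ± 0.214 in Riesling (n = 3 each). In V. amurensis the share was 1.63% ± 0.107 on day 2, 0.355% ± 0.125 on day 7 and 0.172% ± 0.0470 on day 9 (n = 3 each). In V. riparia it was 1.87% ± 0.329, 1.17% ± 0.314 and 0.498% ± 0.327 on the same days (n = 3 each). In Cabernet Sauvignon the share stood at 2.46% ± 0.317 on day 2 (n = 3), 3.79% ± 0.598 on day 7 (n = 4) and 1.79% ± 0.923 on day 9 (n = 3). In Riesling it stood at 2.52% ± 0.659, 2.73% ± 0.608 and 1.63% ± 0.722 (n = 3 each). The high share on day 7 in Cabernet Sauvignon came with Vitvi06g01696, which held 1.98% of counts there, against 1.05% at day 0. The other 44 members together held 1.82% on day 7, against 2.25% at day 0. By day 14 the whole set was down to 0.227% ± 0.110 in Cabernet Sauvignon and 0.196% ± 0.0460 in Riesling (n = 3 each). On day 15 it held 0.545% ± 0.128 in Cabernet Sauvignon (n = 3).

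Individual samples stood apart within some days. In V. amurensis on day 8, replicate 3 held 0.932% of counts in the members, against 0.183% and 0.226% in the other two. In the libraries labelled Riesling on day 11, replicate 1 held 2.42%, against 0.346% and 0.338%. On day 4 in V. riparia, 2 of the 5 samples held 0.754% and 0.779%, and the others 1.64% to 1.70%. These 2 are the libraries with 69.0% and 68.4% of records outside annotated genes. Samples also stood apart on day 9, which is compared in the tests below. Replicate 3 of Riesling held 0.817%, against 2.19% and 1.89% in replicates 1 and 2. Replicate 1 of V. riparia held 0.863%, against 0.401% and 0.231%, and the Cabernet Sauvignon samples ranged from 0.993% to 2.80%. Across all genes, replicate 1 of day 9 differed from its group with a coefficient of variation of 0.551 and 0.552 in V. amurensis, 0.467 and 0.506 in Cabernet Sauvignon and 0.527 and 0.532 in Riesling, against 0.170, 0.237 and 0.301 between the other two samples in the same order.

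**Figure D2:**
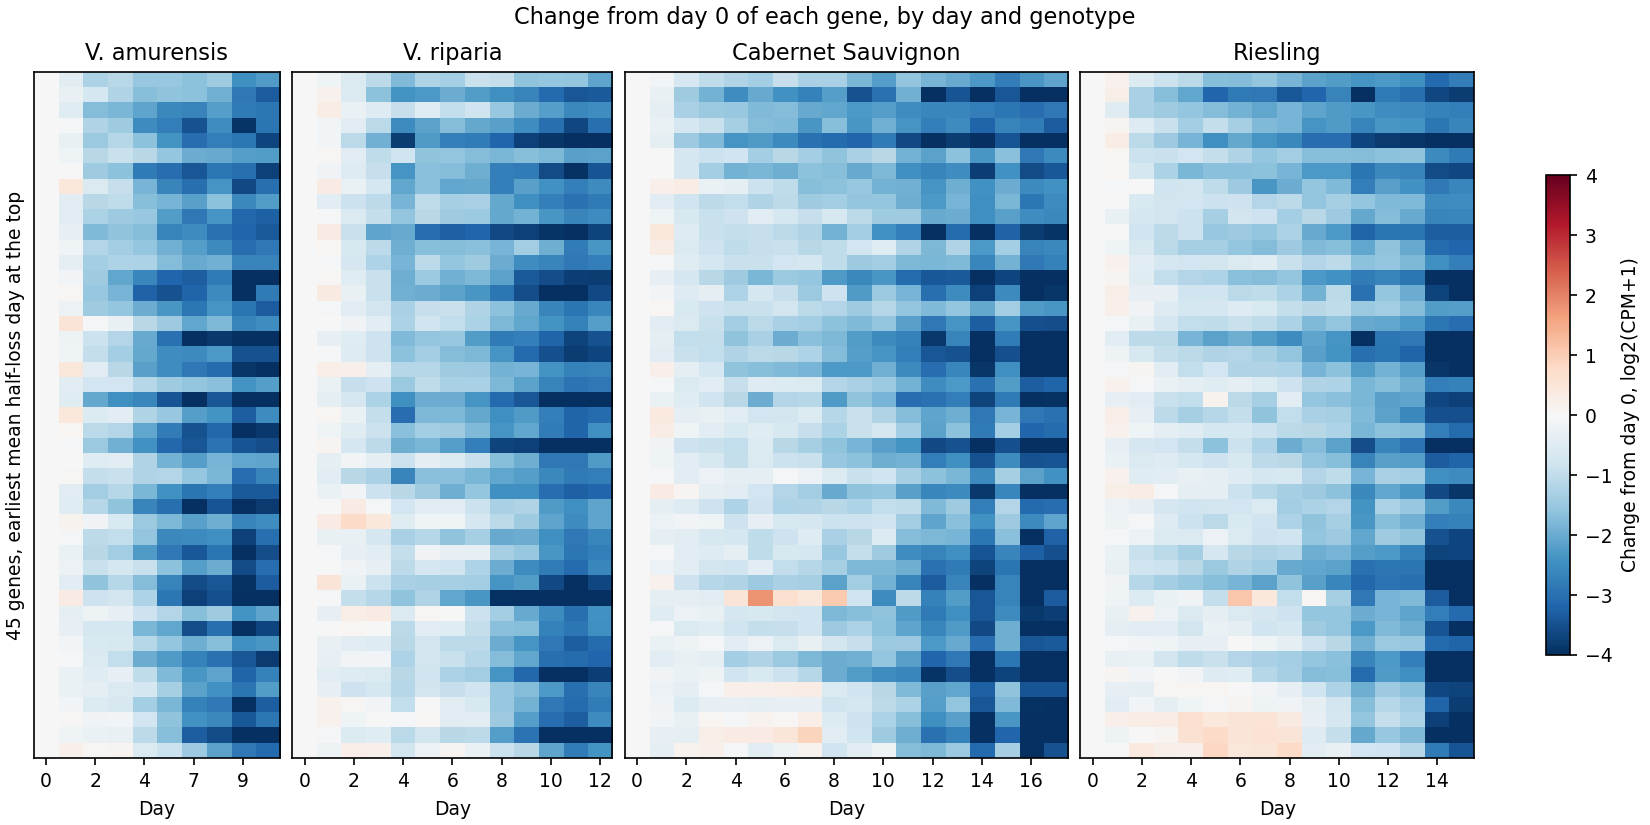
Change from day 0 in log2(CPM+1) of each late-lost gene, 1 line per gene, by day and genotype, with blue for lower and red for higher; genes are sorted by their mean half-loss day over genotypes. In the wild genotypes most lines darken early in the series, while in the cultivars a few lines near the bottom are above day 0 on days 4 to 8.

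To compare timing gene by gene, the half-loss day was taken as the first time, interpolated between day means, at which a member had lost 0.5 of its difference between day 0 and the last day. It uses the days of the selection rule for its scale and is a description with no test. The median half-loss day over the 45 genes was 3.88 in V. amurensis and 5.35 in V. riparia, and 10.3 in Cabernet Sauvignon and 10.05 in Riesling. Computed over samples that share a replicate number, the medians had an SD of 0.322, 2.49, 1.49 and 1.31 days in that order (n = 3 numbers each). Same-numbered samples did not deviate together in the pairs of days checked, and some days lack a number. The V. riparia value rests on day 4, whose libraries include the shallowest and the one with the highest share of records outside genes. Without that day it was 7.09. Without days 5, 8 and 11 the cultivars' medians were 10.3 in Cabernet Sauvignon and 10.5 in Riesling. With TMM scaling the medians were 3.54 and 5.77 in the wild genotypes, and 8.62 in Cabernet Sauvignon and 8.65 in Riesling.

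Most members shared the order of wild before cultivated genotypes. Both wild genotypes reached half-loss before both cultivars in 43 of the 45 genes. V. amurensis was the earliest of the 4 genotypes for 35 members and V. riparia for 10, and no member was earliest in a cultivar. All 10 members with V. riparia earliest had their V. riparia half-loss between days 3 and 4. Without V. riparia day 4, V. amurensis was earliest for 43 members and V. riparia for 2, and both wild genotypes preceded both cultivars in 39. Between the cultivars Cabernet Sauvignon came before Riesling in 18 of the 45, and in 30 without days 5, 8 and 11, so the order of the cultivars depended on those days. The series also differed in length. With the half-loss day expressed as a percent of the last day, the medians were 38.8% and 44.6% in V. amurensis and V. riparia, and 60.6% and 67.0% in Cabernet Sauvignon and Riesling. On that scale both wild genotypes preceded both cultivars in 26 members, and the reverse held for 2. Without day 4 the V. riparia median was 59.0%, and the counts were 23 and 4.

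The members also differed among themselves. Half-loss days ran over 1.77 to 7.15 in V. amurensis and 2.80 to 9.09 in V. riparia, and over 2.71 to 11.9 in Cabernet Sauvignon and 2.61 to 13.5 in Riesling. Before day 4, 28 members had reached half-loss in V. amurensis and 20 in V. riparia, against 4 in Cabernet Sauvignon and 3 in Riesling. Of the 20 in V. riparia, 19 lay between days 3 and 4, and without day 4 the count was 7. After day 9, none reached it in V. amurensis and 1 did in V. riparia, against 28 in Cabernet Sauvignon and 26 in Riesling. Genes that were early in one genotype tended to be early in another. Across the 45 genes, which share libraries within a genotype and are not independent, Pearson's r of the half-loss day was 0.741 between Cabernet Sauvignon and Riesling (Spearman's rho 0.591) and 0.404 between V. amurensis and V. riparia (rho 0.362). The other 4 pairs of genotypes had r between 0.458 and 0.534.

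**Figure D3:**
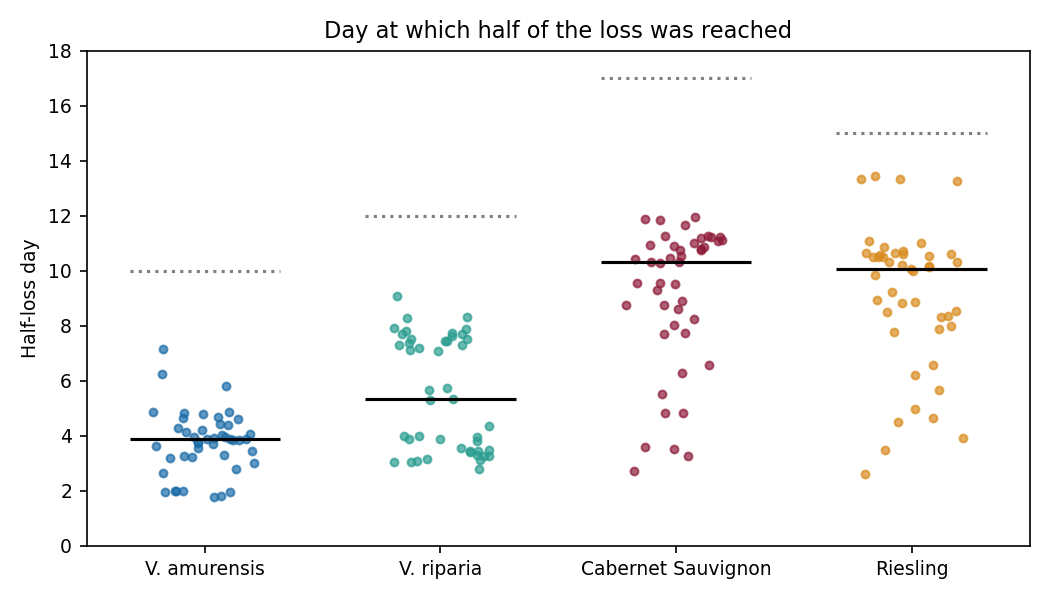
Half-loss day, in days at room temperature, of each of the 45 genes in the 4 genotypes. Points are genes, black lines are medians (3.88 and 5.35 in V. amurensis and V. riparia, 10.3 and 10.05 in Cabernet Sauvignon and Riesling) and dotted lines mark the last day of each series.

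The samples of days 2, 7, 9 and 14 took no part in choosing the genes, but they lie between the days that did. A loss of 2 or more after day 1 was fixed by the choice of the members, by day 10 in V. amurensis and day 12 in V. riparia, and by day 17 in Cabernet Sauvignon and day 15 in Riesling. Calls of lower level and the absence of higher calls were thus largely set by that choice, most of all in windows that end near the last day. The counts below place the loss in time, and the share of all genes stands beside them as background and not as an independent test. Each genotype was fitted with edgeR's quasi-likelihood test over all its days, a gene was called at a Benjamini-Hochberg adjusted p under 0.05 over all genes tested, and all 45 members passed the filter on low counts in every fit. On day 7, 38 of the 45 late-lost genes were lower than on day 2 in V. amurensis, where 18.8% of all 20932 genes tested were called lower. In V. riparia 9 members were lower, against 2.41% of all genes. In Cabernet Sauvignon 7 members were lower, against 5.91%, and in Riesling 8, against 3.32%. No member was called higher in any genotype, where 22.2%, 6.22%, 6.66% and 3.88% of all genes were called higher in the same order. The median log2 fold change of the members was -1.64 and -0.95 in V. amurensis and V. riparia, and -0.40 and -0.61 in Cabernet Sauvignon and Riesling, with all-gene medians between 0.00 and 0.05. These counts depended on single replicates. In V. amurensis 23 members were called without replicate 2, where lower calls over all genes went from 3925 to 1849. In V. riparia 2 were called without replicate 1 and 0 without replicate 3. Lower calls over all genes went there from 490 to 103 and 62. In Cabernet Sauvignon 3 were called without replicate 1 and 2 without replicate 3, and in Riesling 1, 5 and 4 without replicate 1, 2 and 3.

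By day 9 most members had fallen in the wild genotypes. Relative to day 2, 44 were lower in V. amurensis and 42 in V. riparia, where 20.4% and 10.5% of all genes were called lower. In the cultivars 21 members were lower in Cabernet Sauvignon, against 7.88% of all genes, and 21 in Riesling, against 6.16%. No member was called higher, where 23% and 15.3% of all genes were called higher in the wild genotypes and 10% and 8.59% in Cabernet Sauvignon and Riesling. Median log2 fold changes were -2.25 and -1.87 in V. amurensis and V. riparia, and -0.76 and -1.02 in Cabernet Sauvignon and Riesling. The members lower in both wild genotypes numbered 41, where 6.5% of all genes tested in both were lower in both. Those lower in both cultivars numbered 15, where 3.93% of all genes were, and the same 15 were lower in all 4, where 1.8% were. There were 18 members lower in neither cultivar, where 89.6% of all genes were. Records outside annotated genes were 9.75% to 38.3% at day 9, against 9.43% to 13.4% at day 2, in V. amurensis, and 12.1% to 29.8%, against 12.8% to 17.7%, in V. riparia. With only libraries at or below 25% of such records, which leaves 2 samples on day 9 in each wild genotype, 40 members were called in V. amurensis and 34 in V. riparia. Lower calls over all genes were then 3427 and 1772, against 4267 and 2142 with all libraries. With a replicate left out 37 to 42 were called in V. amurensis, and in V. riparia 28 without replicate 2 and 29 without replicate 3. Without replicate 2, lower calls over all genes in V. riparia were 655. The cultivar counts depended on single replicates, with 4 members called in Cabernet Sauvignon without replicate 3, and in Riesling 11 without replicate 1 and 7 without replicate 3.

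In the cultivars the median loss was larger between days 9 and 14 than between days 2 and 9. In Cabernet Sauvignon the median change from day 0 was -3.42 on day 14, against -2.36 on day 13 and -2.44 on day 15. The size of that step thus depended on the day chosen. Between day 9 and day 14, 40 members fell in Cabernet Sauvignon and 42 in Riesling, where 15.5% and 16% of all genes were called lower, and 39 members fell in both, as did 11.4% of all genes tested in both. No member was called higher, against 18.4% and 15.1% of all genes. The median log2 fold change was -1.92 in Cabernet Sauvignon and -1.88 in Riesling, ranging over -4.01 to -0.48 and -4.02 to -0.47. Records falling outside annotated genes were 10.1% to 33.5% at day 14, against 13.4% to 32.8% at day 9, in Cabernet Sauvignon, and 9.39% to 30.3%, against 14.3% to 35.5%, in Riesling. The limit of 25% leaves 1 sample on day 14 and 2 on day 9 in each cultivar, where the lone sample is assumed to vary like the other groups, and 28 members were then called in Cabernet Sauvignon and 24 in Riesling. Without the cultivar libraries of days 5, 8 and 11 and the 3 mixed ones, the counts lower on day 7 than day 2, on day 9 than day 2 and on day 14 than day 9 were 8, 22 and 40 in Cabernet Sauvignon and 10, 26 and 42 in Riesling.

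**Figure D4:**
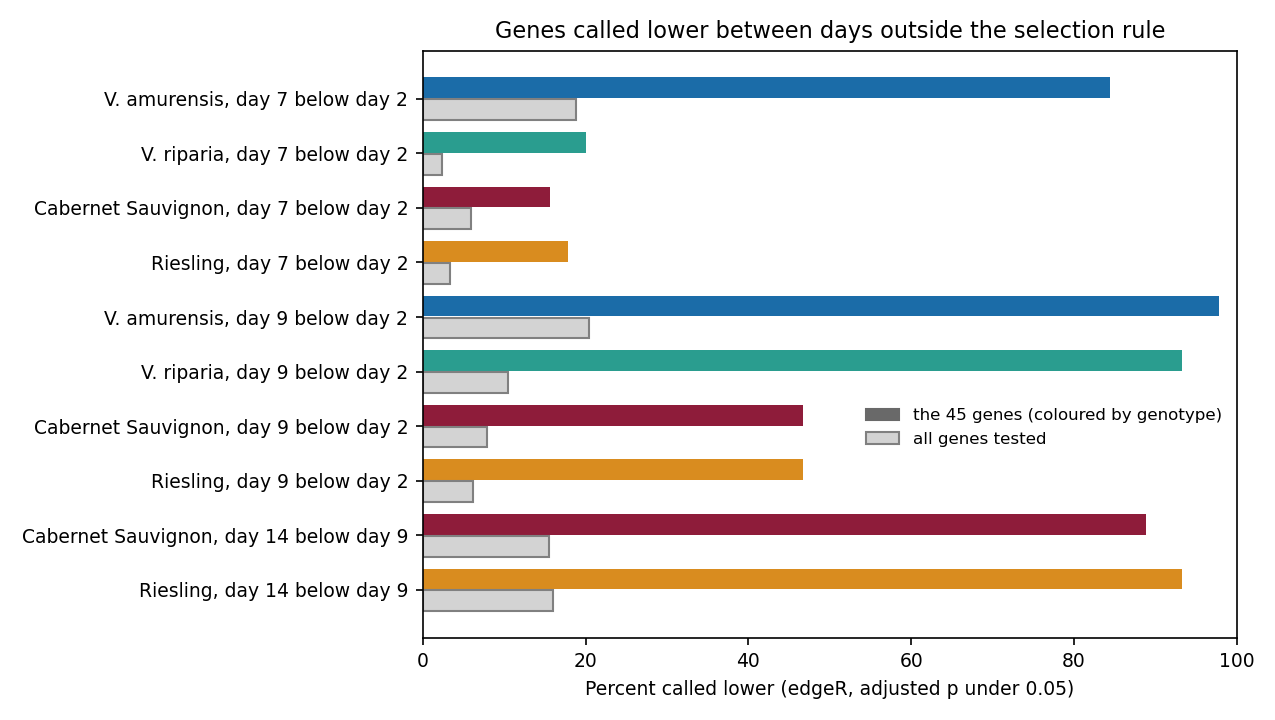
Percent of genes called lower by edgeR (adjusted p under 0.05) between days that lie inside the span over which the rule required a loss. Coloured bars are the 45 late-lost genes and grey bars all genes tested; at day 9 against day 2 the members reach 97.8% in V. amurensis and 93.3% in V. riparia, and 46.7% in both cultivars.

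Whether wild and cultivated buds differed in the course of these genes was tested directly, as the mean change of the wild genotypes minus that of the cultivars in a fit of days 2, 7 and 9 to 21185 genes. For the step between days 2 and 7, 12 members had the more negative change in wild buds, where 3.88% of all genes did, and none had a more positive change, where 4.3% of all genes did. For the step between days 2 and 9, 20 members had the more negative change in wild buds, where 5.89% of all genes did, and none a more positive one, where 4.7% did. The 12 genes of the first step were all among the 20. The median difference of the members was -0.77 for the first step and -1.11 for the second on the log2 scale, with -0.02 and -0.09 over all genes. These differences were below 0 for 42 and 44 of the 45 members. The absence of more positive calls held with DESeq2 as well, while 26 members for the first step and 31 for the second had an unadjusted p under 0.05 in either direction, as did 23.5% and 24.4% of all genes. The last days that chose the members came earlier in the wild genotypes than in the cultivars. The choice of the members thus favours a more negative change in wild buds at both steps, most of all by day 9. Neither the calls nor the absence of more positive ones is independent of that choice. The calls changed when samples were dropped: without the replicate 2 samples 0 and 2 members passed, and without the replicate 3 samples 2 and 11. With only libraries at or below 25% of records outside genes, which leaves 2 samples per genotype on day 9, 8 and 11 passed.

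Within the classes fewer differences passed, in tests that compare 1 genotype with 1 and not 2 with 2. Their errors were larger. For Vitvi06g01696 over days 2 to 7 the SE was 0.802 between the wild genotypes, against 0.562 for wild minus cultivated. The counts of calls therefore do not compare the sizes of the differences. V. amurensis minus V. riparia, over days 2 to 7, was more negative for 2 members, where 2.6% of all genes were, and more positive for none, where 1.63% were. With DESeq2 5 members passed and with a replicate left out 0 to 4, and 13 had an unadjusted p under 0.05 in edgeR, as did 18.8% of all genes. The median difference was -0.72, with -0.12 over all genes. Cabernet Sauvignon minus Riesling passed for 0 members in edgeR and 0 in DESeq2, where 0% of all genes were called lower and 0.0142% higher, and 1 member had an unadjusted p under 0.05 in edgeR, against 3.21% of all genes. Differences between the cultivars ran from -0.33 to 1.11 over the members, with a median of 0.13, against -0.06 over all genes.

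Vitvi06g01696 had the strongest loss by the rule and took the largest share of counts among the members. It belongs to a pair of members with consecutive identifiers, so its separate level is uncertain. Its half-loss day was late, at 6.25 in V. amurensis and 8.31 in V. riparia, and 11.9 in Cabernet Sauvignon and 13.3 in Riesling. In V. amurensis it had 639.6, 511 and 1589 CPM on day 7 and 257, 150.1 and 128 CPM on day 9, against 7223, 6114 and 6217 CPM on day 2. All day 7 and day 9 samples were thus below all day 2 samples. The log2 fold change was -2.70 ± 0.592 at day 7 (SE, n = 3, edgeR adjusted p = 7.88e-04) and -5.04 ± 0.665 at day 9 (adjusted p = 9.69e-07). In V. riparia it had 4631, 5868 and 3231 CPM on day 7 and 3042, 1273 and 410.4 CPM on day 9, against 8448, 5840.2 and 5014 CPM on day 2. Day 7 overlapped with day 2 (log2 fold change -0.39, edgeR adjusted p = 0.667), and day 9 lay below it (-2.06 ± 0.527, adjusted p = 0.00408). The V. riparia call was lost when only the days of the contrast were fitted.

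The same gene stayed high for longer in the cultivars. In Cabernet Sauvignon it had 15415, 16756, 23744 and 23092 CPM on day 7, against 10030.4, 7597 and 6663 CPM on day 2. These day 7 samples were all above those of day 2, but the difference did not pass (log2 fold change 1.41 ± 0.563, SE, n = 4 and 3, edgeR adjusted p = 0.0889). It had 779, 423 and 143 CPM on day 14, against 10650.0, 6463 and 3322 CPM on day 9, a log2 fold change of -4.01 ± 0.653 (edgeR adjusted p = 1.62e-05). In Riesling it had 9337, 14015 and 12763 CPM on day 7, against 11166, 6785 and 6845 CPM on day 2, with overlapping samples (log2 fold change 0.64, edgeR adjusted p = 0.541). On day 14 it had 658, 331 and 329 CPM, against 8105, 8203 and 2688 CPM on day 9, a log2 fold change of -3.90 ± 0.633 (edgeR adjusted p = 1.92e-05). The wild minus cultivated difference was -2.58 ± 0.562 over days 2 to 7 (edgeR adjusted p = 0.00468) and -3.31 ± 0.577 over days 2 to 9 (adjusted p = 3.18e-04), and neither passed without the replicate 2 samples.

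Vitvi01g01655, the member with the next strongest loss, reached half-loss on day 4.27 in V. amurensis and 3.12 in V. riparia, and on day 5.52 in Cabernet Sauvignon and 4.64 in Riesling. It is thus earlier than the median member in 3 of the 4 genotypes, V. amurensis being the exception. Its V. riparia value lies between days 3 and 4 and rests on the day 4 libraries. In V. amurensis it had 1.18, 2.13 and 2.00 CPM on day 7, against 8.11, 6.44 and 7.06 CPM on day 2 (log2 fold change -1.91 ± 0.699, edgeR adjusted p = 0.0305). In V. riparia it had 8.54, 6.77 and 6.28 CPM on day 7, against 27.3, 34.6 and 17.6 CPM on day 2 (-1.78 ± 0.521, edgeR adjusted p = 0.0280). Both calls were lost when any of the 3 replicates was left out. On day 9 it had 8.04, 1.14 and 0.499 CPM in V. amurensis (-2.69 ± 0.796, edgeR adjusted p = 0.00772) and 6.21, 1.57 and 3.19 CPM in V. riparia (-2.88 ± 0.547, edgeR adjusted p = 2.54e-04). The value of 8.04 CPM comes from the library with 373129 gene counts, where it lies at the floor of 3 counts, and the V. amurensis call was lost without replicate 2 or replicate 3. In Cabernet Sauvignon it had 12.6, 7.42 and 4.68 CPM on day 9, against 22.8, 25.1 and 35.9 CPM on day 2 (-1.88 ± 0.502, edgeR adjusted p = 0.00750), and in Riesling 9.25, 8.86 and 3.90 CPM, against 36.5, 32.3 and 23.0 CPM (-2.23 ± 0.562, edgeR adjusted p = 0.00607). No day 9 sample of a cultivar reached its day 2 samples. On day 14 it had 3.19, 2.02 and 1.70 CPM in Cabernet Sauvignon (log2 fold change from day 9 -1.67 ± 0.544, edgeR adjusted p = 0.0155) and 2.05, 1.29 and 1.55 CPM in Riesling (-1.93 ± 0.635, edgeR adjusted p = 0.0187). The day 9 calls of both cultivars were lost without replicate 3, and the day 14 calls without replicate 1 or replicate 2. The wild minus cultivated difference did not pass at either step (-0.60 ± 0.495 and -0.74 ± 0.542, edgeR adjusted p = 0.513 and 0.440).

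Vitvi11g00927 and Vitvi04g00135 were named because their day means on days 2 to 9 reached farthest above day 0 on average, although neither was called higher in any test. Their averages included cultivar days 5 and 8, whose libraries carry marker genes of the other cultivar. The highest means, in log2(CPM+1), were 1.78 above day 0 for Vitvi04g00135 in Cabernet Sauvignon and 0.835 for Vitvi11g00927 in Riesling, both on day 5. In the wild genotypes the highest Vitvi04g00135 means of days 2 to 9 were -0.729 and -0.939 relative to day 0. The ranking without cultivar days 5 and 8 was not tested. Vitvi11g00927 had the latest half-loss day of all members in both wild genotypes, 7.15 in V. amurensis and 9.09 in V. riparia. Vitvi11g00927 had overlapping levels on days 7 and 2 in the cultivars. In Cabernet Sauvignon it had 319.9, 424, 315 and 348 CPM on day 7, against 388, 369 and 295 CPM on day 2, and in Riesling 227, 282 and 222 CPM, against 236, 221 and 214 CPM. These ranges overlapped (log2 fold changes 0.11 and 0.22, edgeR adjusted p = 0.915 and 0.789). In V. amurensis it had 76.5, 66.2 and 78.8 CPM on day 7 and 18.8, 30.1 and 34.8 CPM on day 9, against 198, 225 and 206 CPM on day 2. It had fallen there at both days (-1.40 ± 0.307, edgeR adjusted p = 7.88e-04, and -2.71 ± 0.334, adjusted p = 3.40e-07). In V. riparia 1 of 3 samples was low on day 7, with 324, 279 and 78.0 CPM, and day 9 had 176, 121 and 59.4 CPM, against 358, 279 and 220.5 CPM on day 2 (-1.31 ± 0.443 at day 9, edgeR adjusted p = 0.0271). In the cultivars it fell between day 9 and day 14, with log2 fold changes of -2.35 ± 0.480 in Cabernet Sauvignon (edgeR adjusted p = 2.55e-04) and -2.45 ± 0.407 in Riesling (adjusted p = 2.67e-05). The wild minus cultivated difference was -0.996 ± 0.323 over days 2 to 7 (edgeR adjusted p = 0.0508) and -1.37 ± 0.332 over days 2 to 9 (adjusted p = 0.00705). The V. riparia call at day 9 was lost without replicate 2 or replicate 3, and the longer wild minus cultivated call without replicate 2.

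Vitvi04g00135 showed the widest separation between the classes among the named genes. It was named for its means on days 2 to 9, which rose above day 0 only in the cultivars. Days 2, 7 and 9 are among those days. Its differences between wild and cultivated buds are thus not independent of how it was named. In V. amurensis it had 5.59, 3.19 and 14.4 CPM on day 7 and 2.68, 1.77 and 1.31 CPM on day 9, against 63.4, 71.2 and 38.4 CPM on day 2 (log2 fold changes -2.70 ± 0.713 and -5.14 ± 0.914, edgeR adjusted p = 0.00388 and 5.91e-05). The value of 2.68 CPM comes from the library with 373129 gene counts and lies below its floor of 3 counts, 8.04 CPM. In V. riparia Vitvi04g00135 had 50.7, 48.5 and 64.3 CPM on day 7 and 55.6, 5.49 and 4.25 CPM on day 9, against 132, 181 and 121 CPM on day 2. Every day 7 and day 9 sample of V. riparia lay below every day 2 sample, and day 9 passed (-2.74 ± 0.778, edgeR adjusted p = 0.00870). In Cabernet Sauvignon it had 56.4, 22.7, 45.6 and 52.7 CPM on day 7 and 75.9, 8.61 and 7.07 CPM on day 9, against 27.1, 33.9 and 13.7 CPM on day 2. In Riesling it had 56.8, 55.0 and 120.4 CPM on day 7 and 145, 57.0 and 21.8 CPM on day 9, against 34.1, 46.2 and 29.8 CPM on day 2. The day 7 samples of Riesling were all above day 2, but no step up passed in either cultivar (log2 fold changes 1.09 and 1.20 at day 7, edgeR adjusted p = 0.295 and 0.200). The highest Cabernet Sauvignon mean, 111 ± 35.6 CPM on day 5 (SD, n = 3), came from libraries whose marker genes are those of the other cultivar. Outside days 5, 8 and 11 the highest mean was 58.8 ± 44.7 CPM, on day 6.

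By day 14 Vitvi04g00135 was down to 2.47, 1.72 and 1.70 CPM in Cabernet Sauvignon and 6.16, 2.32 and 5.53 CPM in Riesling (log2 fold changes from day 9 -3.87 ± 0.852 and -4.02 ± 0.662, edgeR adjusted p = 5.73e-04 and 2.35e-05). Without the replicate 1 samples the change in Cabernet Sauvignon was -2.10 and did not pass. The wild minus cultivated difference was -3.15 ± 0.782 over days 2 to 7 (edgeR adjusted p = 0.0119) and -4.61 ± 0.866 over days 2 to 9 (adjusted p = 7.11e-04). The first of these did not pass without the replicate 2 samples, nor did the day 7 step in V. amurensis, and the day 9 step in V. riparia did not pass without replicate 2 or replicate 3.

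**Figure D5:**
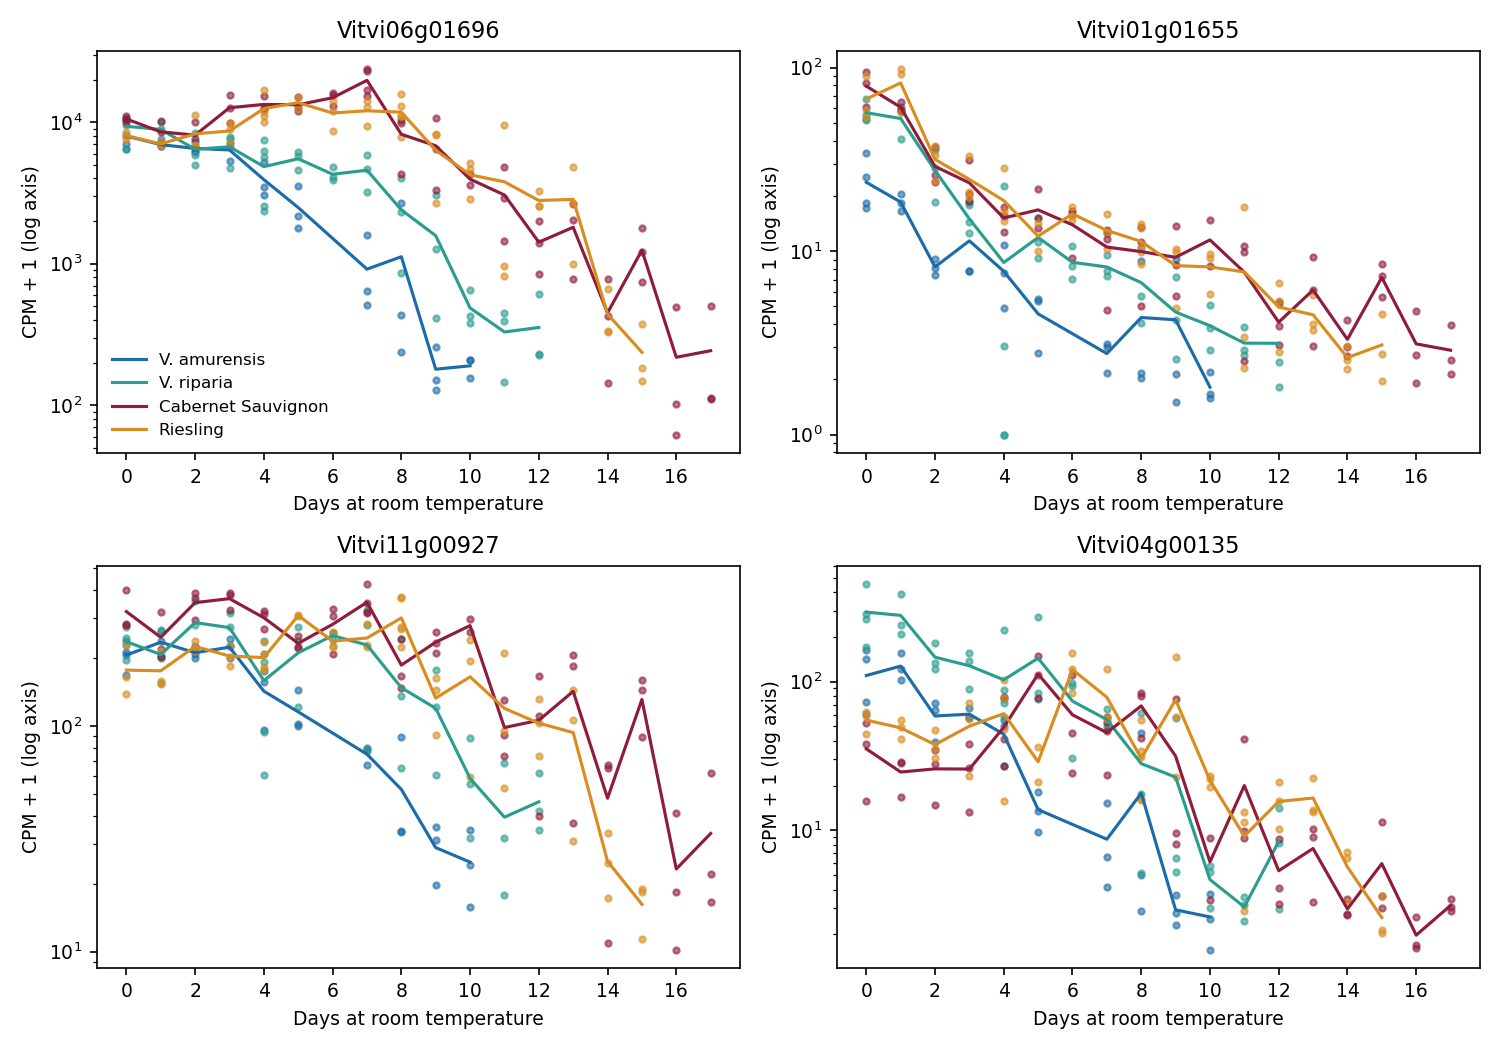
CPM + 1 on a log axis against days at room temperature for the 4 named late-lost genes. Points are samples and lines join day means; Vitvi06g01696, Vitvi11g00927 and Vitvi04g00135 stay high longer in the cultivars than in V. amurensis, while Vitvi01g01655 is lower from day 2 in all 4 genotypes.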

How the data were processed

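RNA of dormant buds was sequenced in 189 libraries. The authors deposited whole-number read counts per gene for each library, and the submitters' processing notes name cutadapt, STAR, HTSeq and DESeq2 without versions. The genome build and annotation are not given in the sources used here. The 5 bookkeeping entries of each table, 26.5% of the records in the median library, were left out of library sizes and tests. None of the 42394 identifiers matched the gene table used for names, so at most 4 are printed.

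Groups came from genotype, day and replicate number in the labels. The labels do not say that replicates are separate vines, so p-values measure the spread between these samples. Near copies, with a coefficient of variation under 0.09 between a pair, were summed. Counts were fitted per genotype with edgeR 4.0.16 in R 4.3.3 (TMM, edgeR's expression filter, quasi-likelihood test, day as a factor, Benjamini-Hochberg adjustment). Differences between genotypes used 1 fit of days 2, 7 and 9. The fits were tested on simulated data. Standard errors were derived from the F statistic. CPM means, half-loss days and medians were computed in Python 3.11.15 with pandas 2.3.3 and NumPy 2.4.6. A floor of 3 counts was at a median of 0.597 CPM and at most 17.8 CPM per library, which covers counting error only.

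The members, tests and gene lists were chosen with earlier results of these data known. The named genes are the 2 members with the strongest weakest loss over genotypes and the 2 whose day means on days 2 to 9 exceeded day 0 most on average. That average included days 5 and 8 of the cultivars. Alternatives were other scaling, DESeq2 1.42.0, no filter, a replicate block, only the contrast's days, separate near copies, fewer libraries, a 2-fold minimum and another pseudocount.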

Additional observations from a re-analysis of the deposited data

Results flagged for a closer look

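Each named gene and the members' share of counts was screened in every genotype and day with 4 or more samples. In 4 of these 30 screens 1 sample lay far from the others, where chance alone marks about 1 in 20. The screens share samples, and days with fewer samples were not screened. Vitvi01g01655 had 3.79 CPM in 1 Cabernet Sauvignon sample of day 7, against 10.7 to 11.99 CPM in the others. That sample is the library with 263961 gene counts, where the floor of 3 counts is 11.4 CPM, so its value lies below the floor. The same gene had 27.46 CPM in 1 Riesling sample of day 4, where the median was 15.2 CPM. Vitvi04g00135 had 219.49 CPM in 1 V. riparia sample of day 4, where the median was 75.1 CPM. The 45 late-lost genes together held 2.944% of counts in 1 V. amurensis sample of day 0, where the median was 2.27%.

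The tests of wild minus cultivated change called 12 late-lost genes over days 2 to 7, where 3.88% of all genes were more negative. Over days 2 to 9 they called 20, where 5.89% of all genes were more negative. Each had the more negative change in wild buds, which the choice of the members favours. Between V. amurensis and V. riparia 2 members, or 4.44%, differed over days 2 to 7. Both were more negative in V. amurensis, where 2.6% of all genes were, and 1.63% of all genes were more positive. Among the named genes the wild minus cultivated differences were -3.15 and -4.61 on the log2 scale for Vitvi04g00135 over the shorter and the longer step. They were -2.58 and -3.31 for Vitvi06g01696, and -1.37 over the longer step for Vitvi11g00927. Vitvi04g00135 and Vitvi11g00927 were named by their means on days 2 to 9, which include the days compared. The causes of these differences were not tested.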

How the results depend on the processing

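Of 211 recomputed counts and medians, 38 moved beyond the limit set for them. The named genes were recomputed only for comparisons that passed in the main fit. Of these 290 values, 258 kept their direction and call. The other 32 kept their direction but lost the call, 24 of these with a replicate left out. The cause of each shift was not tested.

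Membership depended on scaling: 8 of the 45 genes were found again with TMM scaling, and 28 to 33 with a replicate left out. The median half-loss day was 3.54 in V. amurensis, 8.62 in Cabernet Sauvignon and 8.65 in Riesling with TMM, and 8.73 to 10.2 in Cabernet Sauvignon with a replicate left out. Without V. riparia day 4, an alternative chosen after seeing the data, the V. riparia median was 7.09. The counts by order of half-loss without that day, or without days 5, 8 and 11 of the cultivars, were also chosen after seeing the data.

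At day 7 against day 2, 17 members were lower in V. riparia with DESeq2 and 2 with libraries of at most 25% of records outside genes. Lower calls over all genes were 820 and 137 in these settings, against 490 in the main fit. For the same days, fits of only the contrast's days gave 21 members in Riesling and 12 in Cabernet Sauvignon. For day 9 against day 2 such fits gave 13 members in Cabernet Sauvignon and 9 in Riesling. With a replicate left out, the counts at day 7 were 23 to 33 in V. amurensis, 0 to 6 in V. riparia, 2 to 7 in Cabernet Sauvignon and 1 to 5 in Riesling; at day 9 they were 4 to 23 in Cabernet Sauvignon and 7 to 21 in Riesling. At day 14 against day 9, 24 members were lower in Riesling with the 25% limit, which leaves 1 sample on day 14.

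The count of members whose change was more negative in wild buds was 22 over days 2 to 7 with only the contrast's days and 0 to 11 with a replicate left out. Over days 2 to 9 it was 11 with the 25% limit and 2 to 20 with a replicate left out. V. amurensis minus V. riparia gave 1 member with DESeq2's size factors in edgeR, 5 with DESeq2, 10 with only the contrast's days, 7 with the 25% limit and 0 to 4 with a replicate left out. Leaving out the libraries of days 5, 8 and 11 and the mixed ones moved no cultivar count of the tests beyond 1.5 times. The count of members with half-loss in Cabernet Sauvignon before Riesling did move, from 18 to 30 without days 5, 8 and 11.

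Same-numbered replicates did not deviate together: in none of 10 pairs of days was every correlation of deviations over 0.1 (range -0.216 to 0.303), and in none did every sample correlate best with its own number. With a replicate block in the fit, the members lower at day 9 than day 2 were 43 and 42 in V. amurensis and V. riparia and 21 in each cultivar, the wild minus cultivated counts were 10 and 18, and no count moved beyond 1.5 times. Libraries at the depth of the shallowest could not show members under 17.8 CPM.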
